A study of Mus musculus with 10 samples.

Results

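The baseline transcriptome of glomeruli from non-diabetic mice was described from 3 libraries of a series of 10. These 3 libraries were chosen by their label, Saline + Control, and are all the libraries of that group in the count table. They come from wildtype mice of the inbred strain DBA/2J, which the labels call susceptible to diabetic kidney disease (DKD), killed at 17 weeks of age. The mice had been given saline by hydrodynamic injection, a rapid high-volume injection, at 7 weeks of age, and vehicle instead of the beta-cell toxin streptozotocin from 8 weeks of age. They carried no Esm-1 plasmid and no Sleeping Beauty transposase, and the high-fat diet was given to diabetic mice only. The baseline is therefore that of injected animals, not of untouched ones. The other 7 libraries of the series, which are diabetic with or without overexpression of Esm-1, were not used, and no groups were compared.

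Glomeruli are the capillary tufts through which the kidney filters blood. Podocytes wrap the capillaries from outside and are joined by slit diaphragms, fenestrated endothelium lines the inside, and mesangial cells hold the loops together, with a collagen IV and laminin basement membrane between podocyte and endothelium. Parietal epithelium lines the capsule around the tuft, and the tubule that follows it (proximal tubule, thick ascending limb, distal convoluted tubule, collecting duct) recovers salt, water and nutrients. The labels state that perfused kidneys were broken up mechanically and with enzymes and then strained, and markers of tubule and blood cells are therefore given beside those of the tuft.

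The libraries held 11300629, 7314053 and 5989881 reads in replicates 1, 2 and 3, and values of the 3 libraries are given in that order throughout. The ribosomal precursor row Rn45s, together with Lars2 and Mir6236, took 91.5%, 91.2% and 92.1% of these reads. After those 3 rows were left out, 962321, 645803 and 475275 reads remained on 12931 rows, so 1 read was worth 0.619, 0.907 and 1.25 normalized counts. A count of 0 allows up to 3 reads, or 1.86, 2.72 and 3.74 normalized counts, for counting error only. The labels do not say whether a library is 1 animal or a pool, so the spread between libraries may be partly technical, and replicate numbers follow the order of the records. Replicate 2 was most often at an end among the genes of widest spread. Of 115 genes with a mean of at least 50 and more than a 2-fold range, it was the highest or the lowest library in 93.9%, against 34.8% for replicate 1 and 71.3% for replicate 3. Among all 2599 genes with a mean of at least 50, these shares were 76.1% for replicate 2, 55.9% for replicate 1 and 67.9% for replicate 3. Over 7371 genes averaging at least 10 normalized counts, Pearson's r of the log2 values was 0.94 for replicates 1 and 2, 0.95 for replicates 1 and 3 and 0.90 for replicates 2 and 3, a description across genes of libraries made from the same tissue. By this measure replicate 1 lay between the other 2. The main counts of wide genes and the sums of the tubule lists are also given without replicate 2.

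Markers of the 3 cell types of the tuft were present, and so were markers of the tubule. All 7 podocyte markers, all 7 endothelial markers and all 6 mesangial markers averaged at least 10 normalized counts. Summed per kilobase of exon, the podocyte markers gave 892, 1312 and 861 normalized counts per kilobase, the endothelial markers 391, 499 and 441 and the mesangial markers 220.4, 268 and 247. Podxl (podocalyxin, the sialic acid-rich coat protein of the podocyte surface) had 379, 558 and 361 normalized counts per kilobase, a mean of 433 ± 109 (SD, n = 3) and rank 25 among 12830 genes with a length. Eng (endoglin, a co-receptor of endothelial cells for TGF-beta family ligands) had 87.4, 116 and 103 normalized counts per kilobase, a mean of 102 ± 14.5 (SD, n = 3) and rank 246. Pdgfrb (the receptor that mesangial cells need for PDGF-B) had 28.6, 34.3 and 29.8 normalized counts per kilobase, a mean of 30.9 ± 2.99 (SD, n = 3) and rank 1082. Each of the 3 genes was highest in replicate 2, by a margin that was widest for Podxl. Tubular and parietal markers were summed the same way. The 3 collecting duct markers gave 541, 405 and 664 normalized counts per kilobase, the 3 thick ascending limb markers 401, 216 and 597, the 3 distal convoluted tubule markers 146.7, 28.8 and 147.4, the 5 proximal tubule markers 121, 356 and 99.8 and the 4 parietal markers 364, 207 and 405. The collecting duct sum was above the mesangial sum in every library, and above the endothelial sum in replicates 1 and 3. This order depends on which markers are summed. With the full lists, the collecting duct sum was below both the mesangial and the endothelial sum in every library. The full collecting duct list gave 774, 565 and 917 normalized counts per kilobase. The mesangial list gave 1065, 1197 and 1103 and the endothelial list 1935, 2342 and 1949. The 5 myeloid markers summed to 11.1, 5.76 and 7.30 normalized counts per kilobase.

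**Figure D1:**
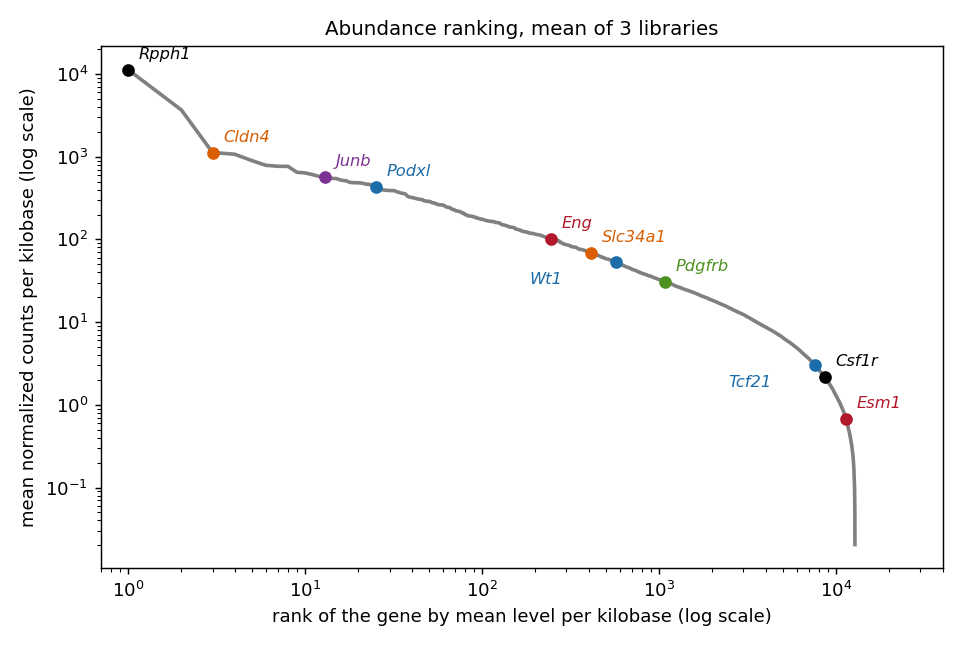
Mean normalized counts per kilobase (log scale) against the rank of the gene by that level (log scale), for the mean of the 3 libraries. The line is all genes with a length and the named points are podocyte (blue), endothelial (red), mesangial (green), tubular (orange), immediate-early (purple) and other genes (black). Podxl stands at rank 25, Eng at 246, Pdgfrb at 1082 and Esm1 at 11374.

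The remaining reads were spread over many genes. None of 28 listed mitochondrially encoded genes had a row, so the ranks and shares given here do not cover them. The row with the most normalized counts was Malat1, a nuclear long noncoding RNA, with 29514, 20601 and 26930.4 normalized counts, which is 4.34% of the mean total. The 10 highest rows held 8.31% of the normalized counts, the 100 highest 21.3% and the 1000 highest 55.7%, and 750 rows were enough for 50%. Protein-coding genes held 93.4 ± 0.719% (SD, n = 3) and long noncoding RNAs 4.80 ± 0.796%. The middle row had 13.5 normalized counts, and 1235 rows had a mean of at least 100. Not divided by length, the protein-coding gene with the most normalized counts was Ahnak, a giant scaffold protein under the membrane, with 3653, 3268 and 4064 normalized counts. Igfbp5, an IGF-binding protein on the mesangial list, had 2910.4, 2943 and 2782 normalized counts and varied little between libraries. Myh9, the nonmuscle myosin heavy chain whose mutations cause human kidney disease, had 2483, 2602 and 2771 normalized counts. Podxl had 2041, 3001 and 1939.5 normalized counts, with replicate 2 above both others.

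Since a longer transcript yields more reads, levels of different genes were compared per kilobase of exon, which changed the order. Of the 100 highest genes by count, 60 were also among the 100 highest per kilobase, and the median exon length was 4005.5 bases for the first set and 1950.5 bases for the other. Among genes with a row and a length, the top position per kilobase belonged to Rpph1, the short RNA of ribonuclease P. It had 11598, 12483 and 9823 normalized counts per kilobase. Malat1 was at rank 2 with 4227, 2950.1 and 3857 normalized counts per kilobase, and Rmrp, the RNA of the related ribonuclease MRP, stood at rank 11 with 718, 707 and 399. Short noncoding RNAs of this kind have few positions for reads to fall on, so their level per kilobase is less certain than that of long messages. At rank 3 stood Cldn4, a tight junction claudin of distal nephron and collecting duct epithelium, with 1424, 682 and 1271 normalized counts per kilobase and its lowest value in replicate 2. Ftl1, the ferritin light chain that stores iron, had 1083, 1099 and 1037 normalized counts per kilobase.

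Other leading positions held genes of the cytoskeleton, secreted proteins and stress responses. Actb had 817, 967 and 912 and Actg1 599, 632 and 715 normalized counts per kilobase. These are the 2 cytoplasmic actins, whose near-identical sequence makes the division of reads between them uncertain. Sdc4, the heparan sulfate proteoglycan syndecan-4, had 779.8, 789.9 and 731 normalized counts per kilobase. Igfbp7, an IGF-binding protein of vessel walls, had 739, 948 and 608 normalized counts per kilobase. The next 3 genes differed more between libraries than the actins, Sdc4 and Igfbp7. The ratio of highest to lowest was 4.66 for Gpx3, 2.49 for Hmox1 and 1.73 for Cxcl1. Gpx3, the plasma glutathione peroxidase that proximal tubule secretes, had 716, 1358 and 292 normalized counts per kilobase and was highest in replicate 2. Hmox1, heme oxygenase, had 499.9, 273 and 682 normalized counts per kilobase, and Cxcl1, a chemokine for neutrophils, had 583, 337 and 535. Both were lowest in replicate 2. Of the 100 genes highest per kilobase in each library, 77 were common to all 3, with 91 common to replicates 1 and 3.

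**Figure D2:**
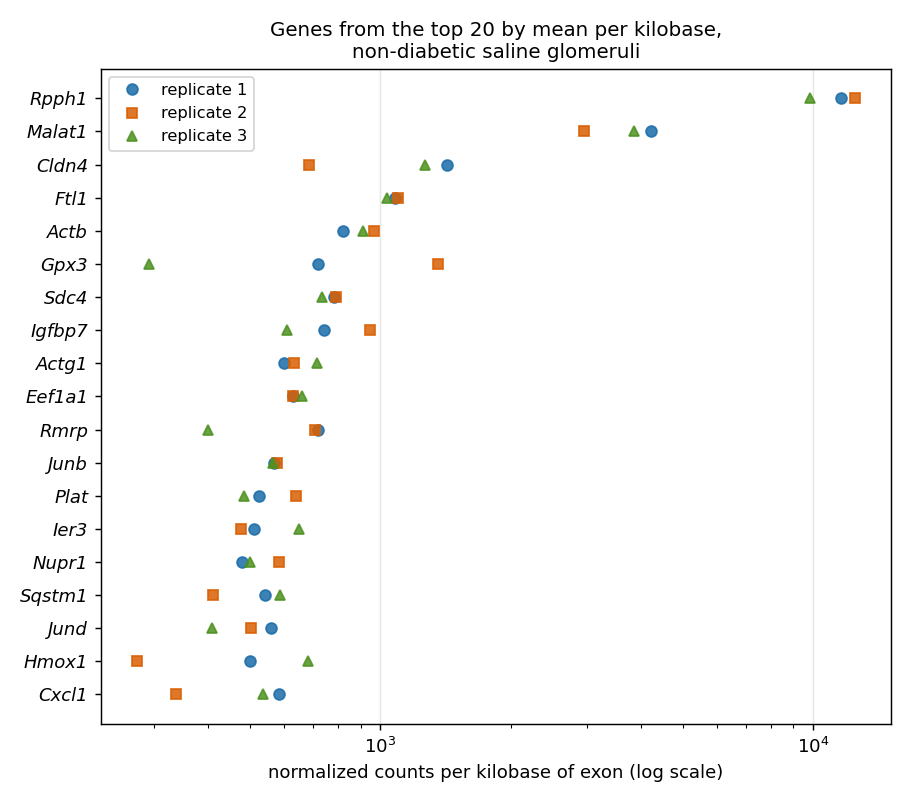
Normalized counts per kilobase of exon (log scale) of 19 genes from the top 20 by mean, 1 point per library. Replicate 2 is to the right for Gpx3 and to the left for Cldn4, Hmox1 and Cxcl1, and the 3 points of Sdc4, Junb, Ftl1 and Eef1a1 lie close together.

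Podocyte genes made up the largest share of the 3 glomerular cell types in the lists used. The 56 podocyte genes took 3.19%, 3.96% and 3.15% of the normalized counts, against 1.14%, 1.41% and 1.16% for 37 endothelial genes and 0.896%, 0.994% and 0.911% for 23 mesangial genes. These shares depend on which genes are listed and are not proportions of cells, and in such bulk libraries fewer cells of a type and less RNA per cell cannot be told apart. Together the 116 genes took 5.23%, 6.36% and 5.23%, with the highest value in replicate 2.

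Among slit diaphragm genes, levels ran over a wide range. Nphs1 (nephrin, the adhesion molecule that bridges neighbouring foot processes) had 82.3, 111 and 69.9 normalized counts per kilobase, rank 291, with replicate 2 highest. Tjp1 (the junction scaffold ZO-1) had 61.1, 71.6 and 71.7 normalized counts per kilobase, and Fat1, a giant cadherin, had 60.3, 71.0 and 61.8. Tjp1 was above Fat1 in every library, by little in replicates 1 and 2, and the ranges of the 2 genes overlapped. Cd2ap, the adaptor that ties nephrin to actin, was among the 10 steadiest genes with a mean of at least 50, with 221, 222 and 224 normalized counts. The low end held Trpc6, a calcium channel that causes inherited glomerulosclerosis in humans when mutated, with 3.71, 0.907 and 4.99 normalized counts, near the limit that 0 reads allow. Of the 12 slit diaphragm genes, 9 had a mean of at least 10. The 12 together gave 566, 764 and 575 normalized counts per kilobase, with replicate 2 highest.

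The podocyte cytoskeleton list was led by Vim (vimentin, the intermediate filament protein that mature podocytes keep, and which endothelium and mesangium also express) with 413, 579 and 411 normalized counts per kilobase. Myh9 had 334, 350.0 and 373 normalized counts per kilobase. Ezr (ezrin, which links podocalyxin to actin and is also abundant in tubule brush borders) had 292, 227 and 264 normalized counts per kilobase. Actn4 (alpha-actinin-4, an actin crosslinker mutated in familial glomerulosclerosis in humans) was steady at 256, 262 and 261 normalized counts per kilobase. Synpo (synaptopodin, the actin-associated protein of foot processes) had 68.3, 94.6 and 64.3 normalized counts per kilobase, with replicate 2 above both others. Nes, the intermediate filament nestin, had 85.1, 126 and 99.3 normalized counts per kilobase.

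A further podocyte list held mainly surface and secreted products, and 19 of its 20 genes averaged at least 10 normalized counts. Besides Podxl it holds Cdkn1c (the nuclear cell cycle inhibitor p57, which marks postmitotic podocytes) with 367, 498 and 302 normalized counts per kilobase. Vegfa, the growth factor that podocytes supply to the glomerular endothelium, had 170.5, 166 and 142 normalized counts per kilobase and was not highest in replicate 2. Enpep, the peptidase that removes the first residue of angiotensin II, had 96.4, 143.2 and 110.0 normalized counts per kilobase. Ptpro, a receptor tyrosine phosphatase of foot processes, had 52.1, 71.3 and 49.5 normalized counts per kilobase. Pla2r1, the main autoantigen of human membranous nephropathy, had 9.75, 9.69 and 6.31 normalized counts per kilobase, and Thsd7a, another antigen of that disease, had 23.0, 29.4 and 19.4. Of the 19 genes above 10, 14 were highest in replicate 2, against 37.6% of all genes with a mean of at least 10.

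Transcription factors of podocytes stood lower per kilobase than the leading structural genes. The highest of the 10 was Wt1, which controls podocyte identity, with 47.3, 70.9 and 41.5 normalized counts per kilobase, rank 572. Foxc2, a forkhead factor of podocyte development, had 15.7, 17.6 and 27.0 normalized counts per kilobase and was highest in replicate 3. Lmx1b, the factor mutated in human nail-patella syndrome, had 2.58, 5.11 and 3.90 normalized counts per kilobase. Tcf21, a helix-loop-helix factor of podocyte differentiation, had 12.4, 6.35 and 2.49 normalized counts, and replicate 3 was below its limit for 0 reads.

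The endothelial list was led by Plat (tissue plasminogen activator, which starts fibrinolysis) with 525, 637 and 484 normalized counts per kilobase, rank 14. Tm4sf1, a tetraspanin-like protein of endothelium and other cells, had 191, 196 and 158 normalized counts per kilobase. Cdh5 (VE-cadherin of endothelial junctions) had 93.3, 127 and 120.4 and Pecam1 (the adhesion molecule CD31) had 70.4, 83.2 and 79.9 normalized counts per kilobase. Ehd3, a marker of glomerular rather than other kidney endothelium in mice, had 46.5, 54.3 and 33.4 normalized counts per kilobase. Nos3, the endothelial nitric oxide synthase, had 38.8, 42.8 and 41.3 normalized counts per kilobase with little spread. Plvap, the diaphragm protein of fenestrae that mature glomerular capillaries mostly lack, had 10.9, 12.3 and 15.7 normalized counts per kilobase. Vwf, von Willebrand factor of larger vessels, had 1.24, 2.72 and 3.74 normalized counts, at or under the limit for 0 reads. Esm1 (endocan, the secreted proteoglycan that the series overexpresses in other mice) had 2.48, 1.81 and 0 normalized counts, from 4, 2 and 0 reads, so its baseline level was not distinguishable from that limit in replicates 2 and 3. Of 33 endothelial genes with a mean of at least 10, 23 (69.7%) were highest in replicate 2, against 37.6% of all genes with such a mean. Summed, the 37 genes gave 1935, 2342 and 1949 normalized counts per kilobase.

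The mesangial list was led by Igfbp5, with 485, 490.0 and 463 normalized counts per kilobase. Serpine2, a protease inhibitor, had 89.6, 117 and 92.5 normalized counts per kilobase. Itga8 (the integrin subunit alpha-8 of mesangial cells) had 56.5, 64.1 and 62.6 normalized counts per kilobase, and Des, the muscle intermediate filament desmin, had 22.3, 32.9 and 29.6. Gata3, a transcription factor of mesangial cells that collecting duct also expresses, had 54.5, 35.4 and 81.0 normalized counts and was lowest in replicate 2, unlike the other genes just named. Agtr1a, the angiotensin II receptor, had 16.6, 21.9 and 29.5 normalized counts per kilobase. Summed, the 23 genes gave 1065, 1197 and 1103 normalized counts per kilobase, a ratio of 1.12 between the highest and the lowest library. Igfbp5 alone held a mean of 479 of the summed mean of 1122. Gene by gene, the median ratio was 1.46 over the 21 genes with a mean of at least 10. Genes on the smooth muscle list differed widely in level. Smtn (smoothelin) had 84.7, 78.9 and 88.3 normalized counts per kilobase and Mylk, the myosin light chain kinase that nonmuscle cells also express, had 37.6, 53.1 and 39.9. Acta2, smooth muscle actin, had 8.05, 1.81 and 21.2 normalized counts and Myh11, smooth muscle myosin, had 31.0, 11.8 and 78.5, with replicate 3 highest for both. Ren1, the renin gene, is not analysed here.

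Ligands and receptors of the signals between podocyte, endothelium and mesangium were measured together. Against Vegfa as ligand, the receptor Kdr (VEGF receptor 2) had 48.9, 61.8 and 53.0 normalized counts per kilobase and Flt1 (VEGF receptor 1) had 24.7, 29.6 and 24.7. The co-receptor Nrp1 had 126, 140.2 and 103 normalized counts per kilobase, the highest of these receptors in every library. Of the angiopoietin system, the receptor Tek had 10.5, 15.8 and 16.2 and the ligand Angpt2 had 21.4, 35.4 and 23.8 normalized counts per kilobase, while the ligand Angpt1 had only 2.48, 2.72 and 0 normalized counts, near the limit for 0 reads. Notch1 had 64.5, 58.9 and 61.7 normalized counts per kilobase, with the ligands Dll4 at 14.7, 9.68 and 14.3 and Jag1 at 10.3, 5.82 and 15.1. Acvrl1, the receptor that signals with endoglin, had 42.1, 33.7 and 39.4 normalized counts per kilobase. All 27 genes of this list together gave 787, 878 and 758 normalized counts per kilobase.

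Basement membrane genes covered the mature collagen IV and laminin networks. The podocyte-made collagen chain Col4a3 had 84.8, 104 and 84.7 normalized counts per kilobase, Col4a4 had 43.1, 51.5 and 48.7 and Col4a5 had 11.7, 15.1 and 13.3. These 3 chains form 1 trimer in the mature membrane, and their levels stood in the same descending order in every library. The chain Col4a1, of the trimer found in mesangial matrix and vessels, had 95.6, 126 and 119 normalized counts per kilobase and its partner Col4a2 had 70.7, 106 and 98.9. Of the laminin chains of the mature membrane, Lama5 had 56.1, 37.6 and 53.3, Lamb2 had 56.5, 57.7 and 52.0 and Lamc1 had 23.9, 26.9 and 31.9 normalized counts per kilobase. The immature chain Lama1 was low, at 1.62, 1.71 and 0.916 normalized counts per kilobase. The receptors Itgb1 with 253, 292 and 263 and Itga3 with 70.9, 91.5 and 67.6 normalized counts per kilobase encode the laminin-binding integrin of the podocyte foot. Of the 21 listed genes, 20 had a mean of at least 10.

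Other matrix genes ranged from abundant to nearly absent. Of 25 mesangial and interstitial matrix genes with a row, 15 had a mean of at least 10 and 9 of at least 50. Cyr61, a matricellular protein induced by mechanical strain, had 385, 601 and 403 normalized counts per kilobase and was highest in replicate 2. Timp3, a matrix-bound protease inhibitor, had 234, 279 and 235 normalized counts per kilobase, and Sparc had 148.3, 206 and 169. In contrast, the fibrillar collagens Col1a1 with 1.86, 0 and 4.99 and Col3a1 with 1.24, 1.81 and 2.49 normalized counts were at or near the limit for 0 reads in each library, and Fn1, fibronectin, had 6.81, 5.44 and 16.2. Among proteoglycans Sdc4 led, followed by Srgn (serglycin of endothelial and blood cells) with 83.3, 87.9 and 100.3 normalized counts per kilobase. Agrn (agrin, a main heparan sulfate proteoglycan of the glomerular membrane) had 30.2, 34.2 and 25.9 normalized counts per kilobase, and Hspg2 (perlecan) had 33.5, 31.3 and 33.8. Ndst1, which starts sulfation of heparan chains, was steady at 20.5, 20.1 and 20.02 normalized counts per kilobase. Summed over 32 genes, the proteoglycan list differed between libraries by a ratio of 1.08. Gene by gene, the median ratio was 1.34 over the 25 genes with a mean of at least 10. Sdc4 alone held a mean of 767 of the summed mean of 1215.

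Tubular genes were also present, and the 81 of them took 1.63%, 1.73% and 1.57% of the normalized counts. Among parietal epithelial genes, Krt8 had 207, 137 and 211 normalized counts per kilobase and Krt18 had 140.02, 54.9 and 181. Both are keratins of simple epithelia, shared with collecting duct, and both were lowest in replicate 2. Pax8, a transcription factor of parietal and tubular epithelium, had 12.3, 11.3 and 9.25 normalized counts per kilobase. The proximal tubule list had the widest ratio between libraries of the lists with more than 20 genes, 2.64. Its 44 genes summed to 1841, 3220.1 and 1222 normalized counts per kilobase. Without replicate 2 the sums of replicates 1 and 3 still differed by a ratio of 1.51. Of its 36 genes with a mean of at least 10, 33 were highest in replicate 2, and 26 stood in the order replicate 2 above 1 above 3, a pattern shown by 21.8% of all genes with such a mean. This and the other lists were chosen with earlier results of these data known, so such counts may be partly built in. Slc34a1 (the phosphate transporter NaPi-IIa of the brush border) had 215, 496 and 119.7 normalized counts. Lrp2 (megalin, the receptor that takes up filtered protein) had 178, 409 and 115 normalized counts. Acsm2, a medium-chain acyl-CoA synthetase, had 189, 471 and 123 normalized counts. All 3 showed the same order of libraries. Kap, an androgen-responsive protein of mouse proximal tubule, had 17.3, 109 and 36.1 normalized counts and differed in having replicate 1 lowest. The list genes with a mean of at least 10 that were not highest in replicate 2 were Kl, Ndrg1 and Fxyd2, each lowest there. Kl (klotho, which distal tubule also makes) had 173, 108 and 229 normalized counts, Ndrg1 had 878, 782 and 873 and Fxyd2 had 116, 107 and 126. Aqp1, the water channel also found in endothelium, had 70.0, 80.7 and 63.6 normalized counts, highest in replicate 2 but with little variation.

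The promoters of the proximal tubule list were searched for GTTAAT, the core letters recognised by the HNF1 factors of kidney and liver epithelium. Both strands of the 250 bases before the start were searched, and no other motif was. GTTAAT was found for 9 of 33 proximal tubule genes with a window (27.3%), against 5.21% of 9715 genes of the table with a window and 6.43% of all 32851 windows. Of the other tubule lists, 2 of 8 thick ascending limb genes, 0 of 9 distal convoluted tubule genes and 1 of 11 collecting duct genes had it. Windows are from RefSeq, build GRCm38.p6, whereas the authors aligned to mm9, so the coordinates apply to the RefSeq build only. The promoters of Slc34a1 (chr13:55399398-55399647, plus strand, matches starting 89 and 61 bases before the start), Acsm2 (chr7:119554090-119554339, plus strand, 166 bases before) and Pck1 (chr2:173152823-173153072, plus strand, 192 bases before) are printed to show where the matches lie, 5′ to 3′ with the matches in capitals. Slc34a1, Acsm2 and Pck1 were picked for holding a match and a high mean count. A match is a description of the letters, not evidence of binding. Whether matches have a part in the differences between libraries was not tested.
Slc34a1: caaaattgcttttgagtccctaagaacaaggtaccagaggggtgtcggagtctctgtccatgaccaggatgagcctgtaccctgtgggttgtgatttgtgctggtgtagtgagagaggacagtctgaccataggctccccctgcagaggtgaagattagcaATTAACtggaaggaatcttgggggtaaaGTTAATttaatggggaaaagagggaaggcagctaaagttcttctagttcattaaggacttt
Acsm2: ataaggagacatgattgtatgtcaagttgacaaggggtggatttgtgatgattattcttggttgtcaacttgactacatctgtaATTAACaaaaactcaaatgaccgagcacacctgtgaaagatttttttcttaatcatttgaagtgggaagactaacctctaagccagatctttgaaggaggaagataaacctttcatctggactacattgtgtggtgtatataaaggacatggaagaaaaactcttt
Pck1: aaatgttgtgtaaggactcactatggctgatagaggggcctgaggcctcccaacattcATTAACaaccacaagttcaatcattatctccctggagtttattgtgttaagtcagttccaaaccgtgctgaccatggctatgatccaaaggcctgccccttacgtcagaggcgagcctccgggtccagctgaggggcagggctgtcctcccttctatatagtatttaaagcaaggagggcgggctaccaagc
Pck1, the gluconeogenic enzyme PEPCK, had 60.1, 97.0 and 26.2 normalized counts, in the same order of libraries as Slc34a1 and Acsm2. Of the 36 proximal tubule genes with a mean of at least 10, 26 showed that order.

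The distal segments went the other way. Umod (uromodulin, the urinary protein of the thick ascending limb) had 844, 471 and 1300.1 normalized counts. Egf, whose precursor is made in the same cells and in distal convoluted tubule, had 1152, 492 and 1227 normalized counts, and Slc12a1 (the furosemide-sensitive transporter NKCC2) had 386, 169 and 504. For all 3 genes replicate 2 was lowest. Slc12a3 (the thiazide-sensitive transporter NCC of the distal convoluted tubule) had 543, 88.0 and 529.8 normalized counts, and its standard deviation of log2(normalized count + 1) was the largest of any gene with a mean of at least 50. None of the 7 thick ascending limb and none of the 8 distal convoluted tubule genes with a mean of at least 10 was highest in replicate 2, against 37.6% of all genes. Summed, the thick ascending limb list gave 706, 341 and 926 and the distal convoluted tubule list 246, 87.1 and 251 normalized counts per kilobase. In the collecting duct, Aqp2 (the vasopressin-regulated water channel) had 427, 364 and 562 normalized counts and Aqp3 had 239, 145.1 and 239, with less spread than Slc12a3. The collecting duct list summed to 774, 565 and 917 normalized counts per kilobase. Between replicates 1 and 3 alone, the sums differed by a ratio of 1.31 for the thick ascending limb, 1.02 for the distal convoluted tubule and 1.18 for the collecting duct. The amount of tubule in each library is not given in the labels, and its part in these differences was not tested.

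**Figure D3:**
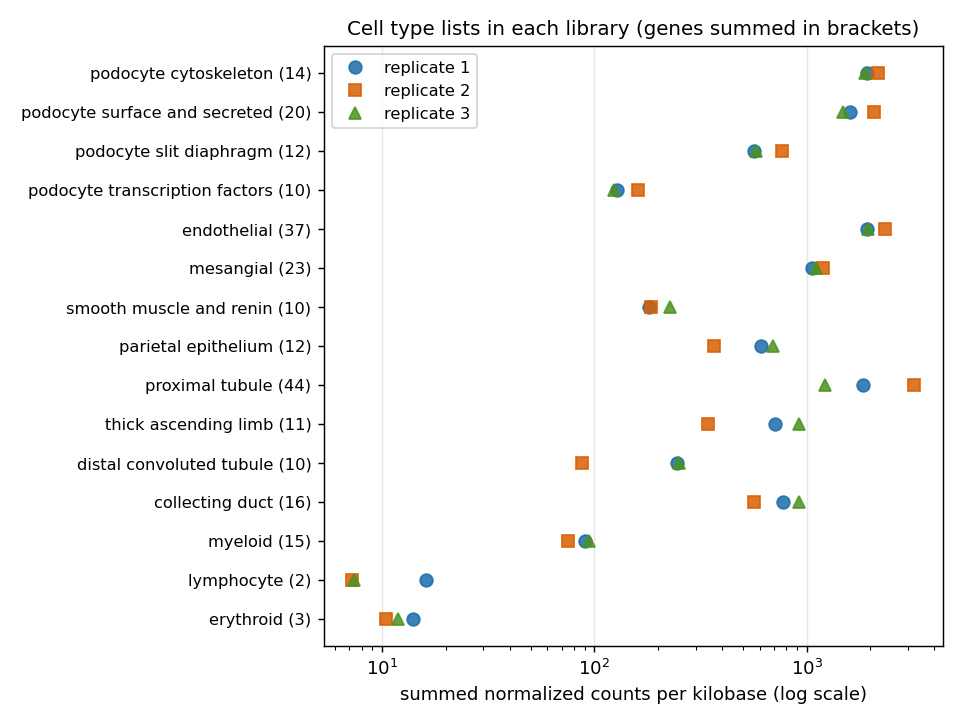
Summed normalized counts per kilobase (log scale) of each cell type list, 1 point per library, with the number of genes summed in brackets. Replicate 2 is highest for the podocyte, endothelial, mesangial and proximal tubule lists and lowest for the parietal, thick ascending limb, distal convoluted tubule and collecting duct lists.

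**Figure D4:**
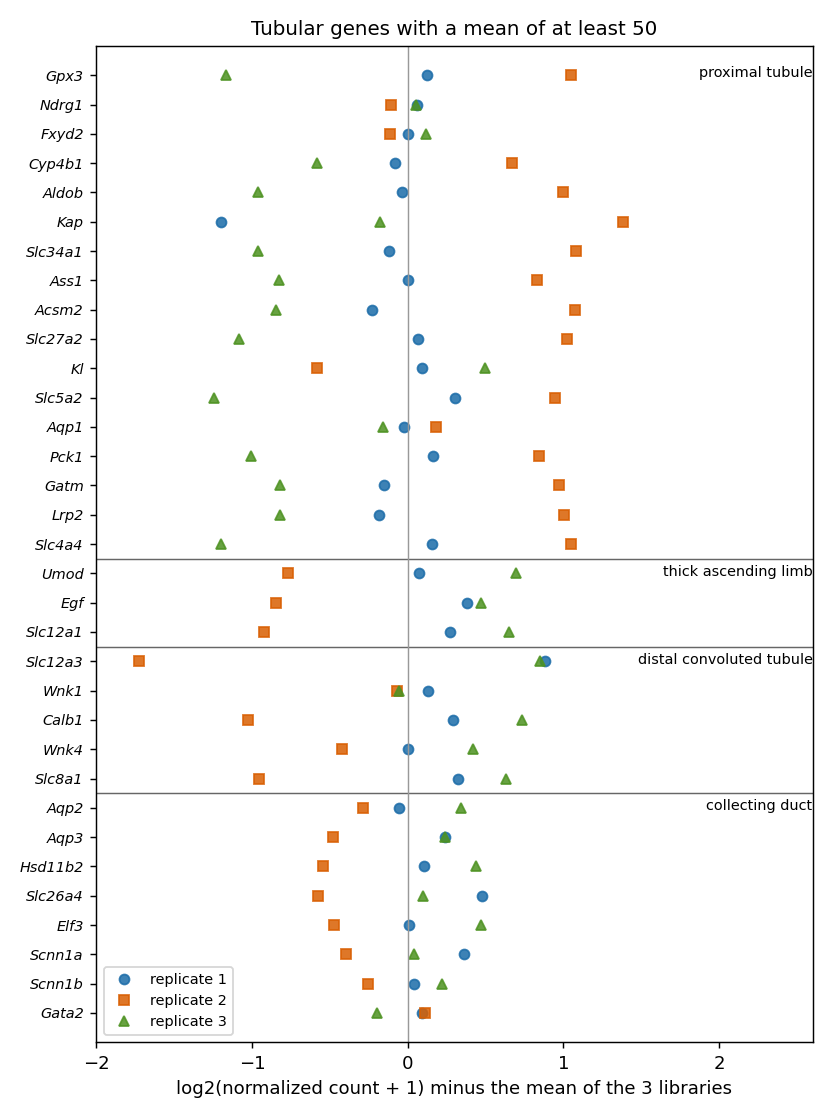
Deviation of each library from the mean of the 3 on the log2(normalized count + 1) scale, for the 33 tubular genes averaging at least 50 normalized counts, grouped by segment. Replicate 2 lies to the right for most proximal genes and to the left for most genes of the later segments.

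Most blood cell genes were low, and 6 of the 20 with a row averaged at least 10 normalized counts. The myeloid list of 26 genes had 15 with a row, of which 4 reached a mean of 10. Cd14, an endotoxin co-receptor that epithelial cells also make, had 89.2, 76.2 and 103 normalized counts and Mrc1, the mannose receptor of macrophages and some endothelium, had 62.5, 62.6 and 48.6. Of the 5 myeloid markers, Csf1r alone averaged at least 10 normalized counts. The leukocyte gene Ptprc (CD45) had 4.33, 0.907 and 0 normalized counts, and C1qa, a macrophage complement gene, had 0 reads in each library. Cd3e of T cells had 22.3, 9.98 and 9.97 normalized counts. In erythroid cells Alas2, the first enzyme of heme synthesis, had 3.71, 3.63 and 7.48 normalized counts. The 20 blood genes, among them Slc4a1, which is also on the collecting duct list, together held 0.0476%, 0.0378% and 0.0425% of the normalized counts.

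Ribosomal and respiratory chain genes varied little between libraries as groups. The 77 cytosolic ribosomal protein genes summed to 5741, 5755 and 5617 normalized counts per kilobase, a ratio of 1.02, although pseudogene copies make the single values uncertain. Rps14 led them with 269, 286 and 283 normalized counts per kilobase. Nuclear genes of the respiratory chain, 74 of 75 with a row, summed to 3988, 3729.5 and 3854 normalized counts per kilobase. Atp5b, the catalytic subunit of ATP synthase, had 333, 307 and 336 normalized counts per kilobase and Cox6a1 had 409.8, 429 and 362. The glucose transporter Slc2a1 had 249.7, 125 and 247 normalized counts per kilobase, with replicate 2 at the low end, and the glycolytic enzyme Aldoa had 209.8, 169 and 202. Fatty acid oxidation was represented at lower levels, with Acadvl (very long chain acyl-CoA dehydrogenase) at 45.1, 31.4 and 36.8 and Cpt1a, the gatekeeper of mitochondrial fatty acid import, at 24.4, 19.3 and 20.5 normalized counts per kilobase.

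Genes that respond within minutes to stress were abundant in all 3 libraries. All 26 immediate-early genes averaged at least 10 normalized counts, and their sum was 5160.3, 4764 and 4944 normalized counts per kilobase. Junb, an AP-1 transcription factor, had 568, 578 and 566 normalized counts per kilobase, rank 13, and was among the 10 steadiest genes. Ier3 had 510.2, 476 and 648 and Jund, another AP-1 factor, 557, 502 and 407 normalized counts per kilobase. Dusp1, a phosphatase that turns off MAP kinases, had 440.4, 531 and 392 normalized counts per kilobase and Fosb had 469, 339.5 and 363. Atf3 had 193, 113 and 175 normalized counts per kilobase, with the lowest value in replicate 2. Ptgs2 (the inducible cyclooxygenase) had 75.6, 31.2 and 87.3 normalized counts per kilobase, also lowest in replicate 2. Heat shock genes were led by Hsp90ab1 with 424, 441 and 413 normalized counts per kilobase. The inducible pair Hspa1a and Hspa1b, near-identical copies whose reads cannot be assigned with certainty, were both lowest in replicate 2. Hspa1a had 162, 62.0 and 139 normalized counts per kilobase, and Hspa1b had 144.9, 57.6 and 138. Among kidney injury genes Clu (clusterin) had 423, 214 and 494 and Spp1 (osteopontin) 390.3, 144.7 and 429.6 normalized counts per kilobase, both lowest in replicate 2, whereas Havcr1 (kidney injury molecule 1 of injured proximal tubule) had 3.10, 3.63 and 4.99 normalized counts, close to the limit for 0 reads.

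The spread between the 3 libraries was small for most genes. Over the 7371 genes with a mean of at least 10, the median standard deviation of log2(normalized count + 1) was 0.27, and the middle 50% of genes lay between 0.16 and 0.41. The median coefficient of variation was 0.188. The highest library exceeded the lowest by more than 2-fold in 1193 genes (16.2%), and in 115 of 2599 genes (4.42%) with a mean of at least 50. Between replicates 1 and 3 alone these counts were 404 (5.48%) and 17 (0.654%). Without replicate 1 they were 855 and 88, and without replicate 3 they were 492 and 64. The variance relative to that of counting was smaller at low levels. For genes with a mean of 10 to 20 it had a median of 1.17 and a mean of 1.78 over genes, and for the 35 genes at 1000 or more a median of 13.3 and a mean of 73.0. The common biological coefficient of variation from edgeR was 0.170 over the 3 libraries, and 0.217, 0.107 and 0.177 without replicates 1, 2 and 3. The median standard deviation between the 2 libraries that remained was 0.25, 0.18 and 0.21, but a standard deviation of 2 values tends to be smaller than one of 3.

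Tubular genes spread more widely than those of the tuft. Of the 67 tubular genes with a mean of at least 10, 49 (73.1%) had a standard deviation above 0.5 on the log2 scale, whereas 6 of 105 podocyte, endothelial and mesangial genes (5.71%) did, as did 1179 of all 7371 genes. These sets were not matched for level. Over all genes the median standard deviation was 0.38 at means of 10 to 20 and 0.20 at means of 50 to 100. By range, 47 tubular genes and 7 of the 105 genes of the tuft exceeded 2-fold. Between replicates 1 and 3 alone, 10 tubular genes and 1 gene of the tuft did. Of the 115 genes over 2-fold, 21 (18.3%) were on the tubule lists, which hold 1.27% of the 2599 genes. Because the lists were chosen with earlier results of these data known, this excess may be partly built in. Replicate 2 was the highest of the 3 libraries in 34 of the 115 and the lowest in 74, and it was at an end in 76.1% of all 2599 genes. Beyond the transporters already given, Acy3, an aminoacylase, had 36.5, 117 and 14.96 normalized counts and Cyp2j5, a cytochrome P450 of mouse proximal tubule, had 44.6, 91.6 and 22.4. Kng2, a kininogen, had 111, 20.9 and 131 normalized counts. Abca13, a lipid transporter, had 223, 45.3 and 256 normalized counts, Blnk, an adaptor of immune receptors, had 116, 31.7 and 128, and Sfrp1, a Wnt antagonist, had 119, 35.4 and 132. These 4 genes, like Slc12a3, were lowest in replicate 2 by a wide margin.

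**Figure D5:**
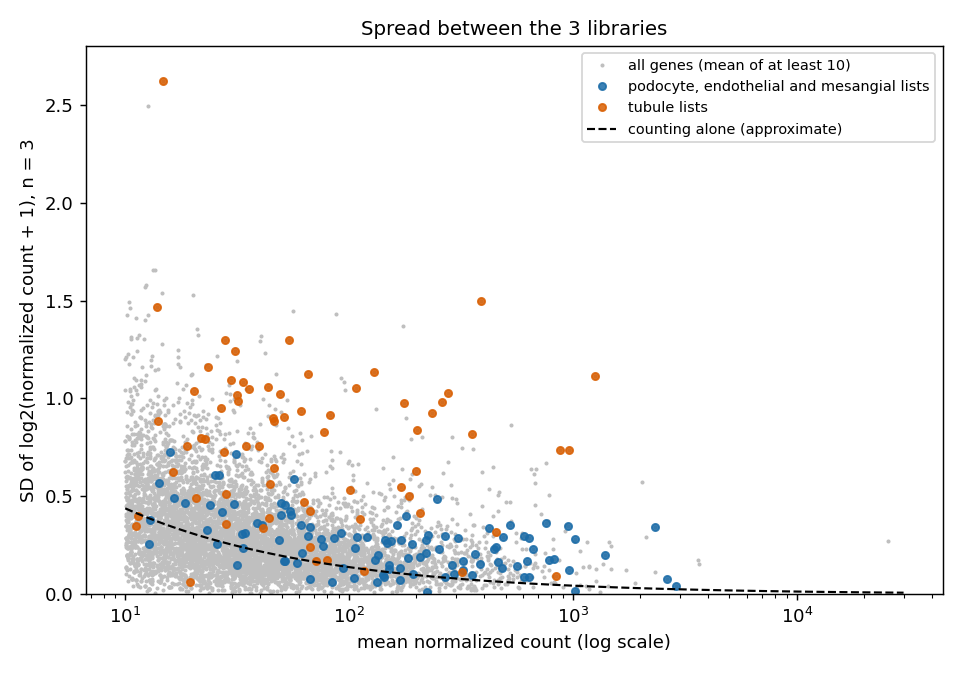
Standard deviation of log2(normalized count + 1) over the 3 libraries against the mean normalized count (log scale), 1 point per gene, with the dashed line for counting alone. Of the tubule genes (orange) 73.1% lie over 0.5, and of the podocyte, endothelial and mesangial genes (blue) 5.71% do.

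The narrowest genes carried diverse functions. Lmna, the nuclear lamin A/C, had 1314, 1334 and 1325 normalized counts, a standard deviation of 0.01 on the log2 scale. Thrap3, an RNA-processing factor, had 129, 128 and 129.6 normalized counts, and Osmr, the oncostatin M receptor, had 155, 157 and 155. Pink1, the kinase of mitophagy, had 82.3, 83.4 and 83.5 normalized counts and Glo1, which detoxifies methylglyoxal, had 57.6, 58.0 and 58.6. A spread this small is below the counting error of these read numbers, so these genes are not shown to be steadier than others at the same level.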

How the data were processed

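Total RNA of strained glomeruli was sequenced, and 3 of the 10 libraries, those labelled Saline + Control, were described. Per the submitters' processing notes, the authors used Trimmomatic 0.36, STAR 2.5.3a, the mm9 build and DESeq2 1.28.1 in R 4.0.2. How reads were counted, with which annotation and whether by strand is not given in the sources used here. Reads of overlapping genes and of near-identical copies (actins, ribosomal proteins, ferritin, Hspa1a and Hspa1b, MHC class I) may therefore be split between rows. The deposited values are a signal of normalized counts, with 1 row per gene and 12934 rows. Of the 129340 values in the table, 100% were whole reads within a tolerance of 0.001 once divided by the value of 1 read, and library depth was taken from these reads. No row had under 7 reads over the 10 libraries, so genes below that, and genes with no row, are not analysed here.

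Rows Rn45s, Lars2 and Mir6236 were left out, and 19 rows with names in the form of dates were kept in totals but not named. Exon lengths came from the GENCODE M21 annotation (GRCm38), a later build than the authors' own, matched by current symbol for 12404 rows and by older symbol for 471; 12830 rows, with 99.6% of the normalized counts, had a length. Spread was the standard deviation of log2(normalized count + 1), and the biological coefficient of variation came from edgeR 4.0.16 in R 4.3.3, with an intercept only, on the recovered reads of genes with a mean of at least 10. No hypothesis was tested. Tables used Python 3.11.15 and pandas 2.3.3. Alternatives were other scalings (total, TMM, DESeq2 1.42.0 size factors), pseudocounts, filters, lengths and leaving out each library.

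The genes named were the 20 highest by count and per kilobase, the 4 highest and the lowest of each list, the 15 widest and 10 narrowest genes with a mean of at least 50, the 5 highest above the others in each library, and Podxl, Eng, Pdgfrb and Esm1; further list members were added with their values seen. The members and lists were chosen with earlier results of these data known. Some genes that this rule selects are left out of the text and plots; they stay in the sums and counts.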

Additional observations from a re-analysis of the deposited data

How the results depend on the processing

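The ranking depended on dividing by length: 60 of the 100 highest genes per kilobase were also among the 100 highest without division. With coding length, an alternative chosen after seeing the data, 70 were shared. The other scalings, filters and summaries left 97 to 100, and leaving out 1 library left 94 to 97. The median standard deviation on the log2 scale (0.265) was 0.233 with a pseudocount of 5, 0.372 with no filter and 0.185 for genes with a mean of at least 50. It was between 0.185 and 0.248 with 1 library left out, and the biological coefficient of variation was then between 0.107 and 0.217. A standard deviation of 2 values tends to be smaller than one of 3, so those medians are not directly comparable with 0.265. Leaving out a library also cannot widen the range of a gene or list, so lower counts below are partly built in. Of the 29 lists with rows, 6 differed by over 1.5-fold between libraries, against 2 to 5 with 1 library left out. The 2 that remained without replicate 2 were the proximal tubule list, at a ratio of 1.51, and the lymphocyte list, at 2.18. The first is only just over 1.5, and the lymphocyte list had 2 genes with a row and 39, 12 and 9 reads. Counts of genes over 2-fold with 1 library left out, also chosen after seeing the data, ran from 404 to 855 (1193 with all 3), from 17 to 88 at a mean of at least 50 (115), and from 10 to 43 on the tubule lists (47), lowest without replicate 2. Replicate 3 is the library with a title number under 100. The cause of these shifts was not tested. No paired analysis was possible because only 1 group was described and no test was made. With 475275 to 962321 reads left per library, genes of a few reads are near the counting limit, and 3 libraries give an imprecise spread.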

Other observations

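Further gene groups were measured in the same 3 libraries. Interferon-stimulated genes ran higher in replicate 3 for 15 of 23 members with a mean of at least 10, against 35.2% of all such genes, and the list summed to 604, 766 and 866 normalized counts per kilobase. B2m, the light chain of MHC class I, had 137, 207 and 199 normalized counts per kilobase and H2-K1, a class I heavy chain whose reads may be shared with relatives, had 138, 170.4 and 168. Isg15, an antiviral ubiquitin-like protein, had 18.0, 17.2 and 37.4 normalized counts, and Gbp4, a guanylate-binding protein, had 52.0, 68.0 and 132. Replicate 3 was the highest library for both. It was also the highest for Pou4f1, a neuronal transcription factor, with 345, 287 and 679 normalized counts, from 557, 317 and 545 reads.

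The circadian clock list summed to 319.8, 317 and 318 normalized counts per kilobase, with a ratio between libraries of 1.01. Gene by gene, the median ratio was 1.39 over the 14 genes with a mean of at least 10. Nr1d1 alone held a mean of 118 of the summed mean of 318. Nr1d1, a clock repressor, had 109, 124 and 120.0 normalized counts per kilobase, and Arntl, the activator BMAL1 that it represses, had 4.41, 3.23 and 4.44. Per1 had 19.9, 13.2 and 11.5 normalized counts per kilobase. Ddx3y, carried by the Y chromosome, had 71.8, 59.9 and 53.6 normalized counts, and the labels give no sex for these mice.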
